A study of Mus musculus with 4 samples.

Results

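Chemokine receptors are the surface receptors that tell a leukocyte where to go. Messenger RNA of 9 of them, Cxcr1, Cxcr2, Cxcr3, Cxcr4, Cxcr5, Ccr1, Ccr2, Ccr3 and Ccrl2, was compared between neutrophils with and without SRF (serum response factor), which binds DNA at CArG boxes and switches on many genes of the actin cytoskeleton. The 9 genes were taken by symbol from a table of 23284 genes, and all 9 were found and tested there. The cells were mature neutrophils from mouse bone marrow, sorted as Gr1 high, 7/4 high and granular by side scatter, and the study asked whether SRF is needed for these cells to migrate in inflammation. There were 2 samples of genotype WT and 2 of genotype Srf KO, 4 in all, with no other treatment given in the labels. How Srf was deleted, in which other cells, and the strain and age of the mice are not given in the sources used here, nor is it said that the samples of a genotype are separate animals, so their spread may be technical.

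In the bone marrow, neutrophils are held back by CXCR4, the receptor for CXCL12 made by stromal cells, and leave when CXCR2, the receptor for CXCL1 and CXCL2, is engaged; CXCR1, its close relative, binds CXC chemokines as well. Mature neutrophils carry much CXCR2, and aged ones regain CXCR4 and home back to the marrow. CCR1 binds CCL3, CCL5 and CCL6 and is found on neutrophils and monocytes. CCR2 is best known on inflammatory monocytes, CCR3 on eosinophils and basophils, CXCR3 on activated T and NK cells and CXCR5 on B cells. CCRL2 is an atypical receptor that binds chemerin without signalling in the usual way.

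The bases just before the transcription start are shown for the 3 receptor genes with the largest falls in Srf KO (Cxcr1, Cxcr2 and Ccr1) and for Cxcr4, which fell less, since these 4 are the receptors the comparison turns on. A 40-base stretch of the Ccr3 promoter and a 60-base stretch of the promoter of Srf, whose product binds its own gene, are shown for the motif. Sequences are RefSeq promoters on GRCm38.p6, written 5′ to 3′ along the gene. Capitals mark CArG boxes in Srf, and in the receptor genes stretches that differ from a CArG box by 1 letter.
Cxcr1 (chr1:74194632-74194791, minus strand): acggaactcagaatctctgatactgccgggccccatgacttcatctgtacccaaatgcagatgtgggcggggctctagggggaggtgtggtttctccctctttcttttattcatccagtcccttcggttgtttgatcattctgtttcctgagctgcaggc
Cxcr2 (chr1:74153834-74153993, plus strand): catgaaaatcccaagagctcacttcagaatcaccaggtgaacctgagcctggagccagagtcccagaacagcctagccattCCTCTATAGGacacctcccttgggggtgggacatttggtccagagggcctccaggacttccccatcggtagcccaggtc
Ccr1 (chr9:123968693-123968852, minus strand): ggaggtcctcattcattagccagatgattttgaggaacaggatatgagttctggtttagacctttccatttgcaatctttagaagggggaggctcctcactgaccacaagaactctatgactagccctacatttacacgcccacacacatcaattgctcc
Cxcr4 (chr1:128592300-128592459, minus strand): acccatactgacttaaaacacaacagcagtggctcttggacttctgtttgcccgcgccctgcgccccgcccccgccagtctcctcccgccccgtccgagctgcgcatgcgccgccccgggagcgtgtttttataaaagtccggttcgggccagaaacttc
Ccr3 (chr9:124021768-124021807, plus strand): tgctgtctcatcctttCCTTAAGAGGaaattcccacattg
Srf (chr17:46556201-46556260, minus strand): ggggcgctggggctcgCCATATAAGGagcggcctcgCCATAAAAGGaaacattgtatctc
RefSeq promoters, from 250 bases before the start to 50 after it, were matched for 8 of the 9 genes, Cxcr5 being the exception. On either strand, 0 of the 8 held a CArG box, which 1.63% of 32851 promoters of the same length did. A stretch with at most 1 letter off stood in 2 of the 8, in Cxcr2 at position -79 and in Ccr3 at position -187 from the start, against 21.1% of all promoters. The core of the site of PU.1, a myeloid transcription factor, spelled GAGGAA and searched on both strands, was in 4 of the 8 (Cxcr2, Cxcr3, Ccr1 and Ccr3), against 28.3% of all promoters. In Cxcr2 and Ccr3 it overlapped the capital letters.

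Values are FPKM (sequenced fragments scaled to transcript length and to the mapped total), as pooled by the authors into 1 value per genotype. Log2 folds are given as Srf KO over WT, followed by ± 1 standard error, which was derived from the authors' fold and test statistic. A gene is called where the authors' adjusted p is at most 0.05. Read depth and the spread between samples are unknown, and, with no settings of the test given in the sources used here, it is not known how far its errors reflect differences between samples. In the authors' deposited table Srf itself went from 13.7 to 0.439 FPKM (-4.97 ± 0.27), in the direction of the labels. Of the listed neutrophil markers, Retnlg was at 24805 FPKM in WT and 17117 in Srf KO according to the authors' deposited table; 5 others, among them S100a8 and Camp, had too many reads to be tested and are listed at 0 in at least 1 genotype, and Ly6g was not analysed here.

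Of the 9 receptor genes, 7 were called, 4 lower in Srf KO (Cxcr1, Cxcr2, Ccr1 and Cxcr4) and 3 higher (Ccr2, Ccr3 and Cxcr3), while Cxcr5 and Ccrl2 were not called. Among all 12634 tested genes 35.5% were called, 17.7% higher and 17.8% lower. These shares are the background for the counts of each gene and marker list below as well. The median log2 fold was -0.24 over the 9 receptors and 0.08 over all tested genes. The 3 most abundant receptors in WT were among those that fell, and the 3 that rose were at lower levels. The summed level of the 9 genes went from 1219 FPKM in WT to 598 in Srf KO, 49.1% of the WT value.

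**Figure D1:**
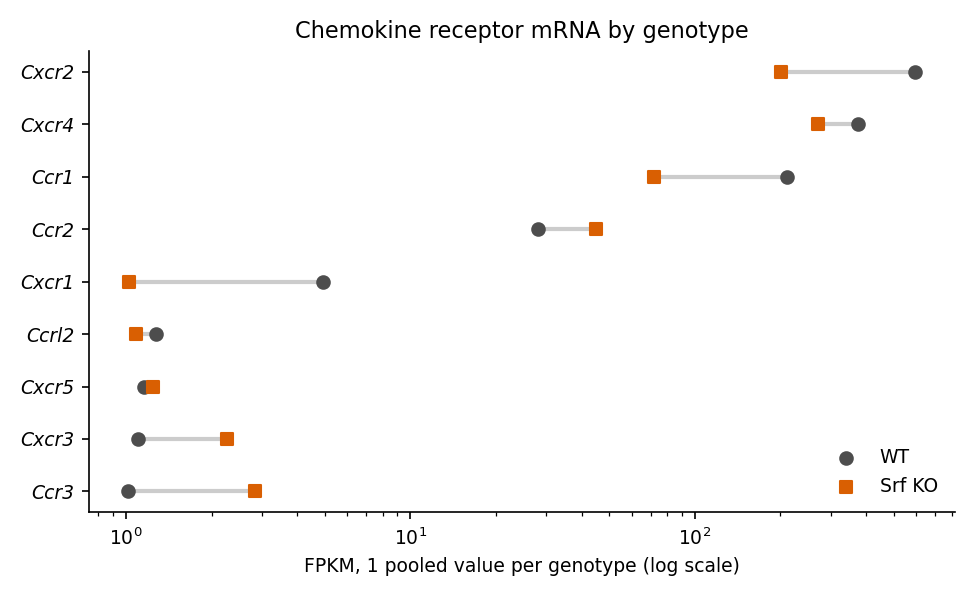
Level of each receptor gene in FPKM (x axis, log scale) in WT (circles) and Srf KO (squares), 1 pooled value per genotype and no error. Cxcr2, Ccr1 and Cxcr1 lie far to the left of WT in Srf KO, Cxcr4 a little, and Ccr2, Cxcr3 and Ccr3 to the right.

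Cxcr2, the main receptor for neutrophil release and recruitment, was the most abundant of the 9 in WT. Its gene lies on chromosome 1 (74153994 to 74161246, mm10, plus strand, ENSMUSG00000026180.8), with 2 exons and the coding sequence in 1 of them. In the authors' deposited table Cxcr2 was at 596 FPKM in WT and 201 in Srf KO. This was a 2.97-fold fall in the authors' deposited table (log2 fold -1.57 ± 0.19, 95% interval -1.95 to -1.19, adjusted p = 3.9e-14). It left Cxcr2 mRNA at 33.7% of WT, yet still above the level of 97.3% of tested genes, against 99.2% in WT. Of the 12552 genes with a fold, 2.37% had a lower one. Because the samples are bulk, fewer cells carrying a transcript and less of it per cell cannot be told apart, for this gene and for the others.

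Cxcr1 showed the largest fall of the 9 in the folds as deposited, from a far lower level. It lies 30.5 kb beyond Cxcr2 on chromosome 1 (74191786 to 74194631, mm10, minus strand, ENSMUSG00000048480.5), with 2 exons, of which 1 is coding. The authors' deposited table gave 4.93 FPKM in WT and 1.03 in Srf KO for Cxcr1. That is a 4.80-fold fall in the authors' deposited table (-2.26 ± 0.31, 95% interval -2.87 to -1.65, adjusted p = 1.93e-11). Only 80 genes, 0.637% of those with a fold, had a lower one. In WT there was 121 times as much Cxcr2 as Cxcr1 mRNA per unit length, and 195 times as much in Srf KO. The fold of Cxcr1 was lower than that of Cxcr2 by 0.69 on the log2 scale (difference -0.69 ± 0.37, 95% interval -1.41 to 0.03), an interval that holds 0. Intervals of differences between folds take the errors of both genes as independent. On the log2(FPKM + 1) scale, which damps low levels, the rank of Cxcr1 was lost. There it was at -1.55, with Cxcr2 at -1.57 and Ccr1 at -1.54.

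Cxcr4, the marrow retention receptor, fell much less. Its gene is on chromosome 1 as well (128588199 to 128592299, mm10, minus strand, ENSMUSG00000045382.6), with 2 exons, both coding. In WT the authors' deposited table had Cxcr4 at 374 FPKM and in Srf KO at 272, or 72.8% of WT. The authors' deposited table called the difference, a 1.37-fold fall, close to the threshold (-0.46 ± 0.19, 95% interval -0.82 to -0.09, adjusted p = 0.0414). Of the genes with a fold, 22.8% had a lower one, so a fall of this size was common among the genes tested.

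The call of Cxcr4 depended on the processing. Its direction was kept under centring and length adjustment, the settings that could have changed it. The call was lost at a threshold of 0.01, at which 6 of the 9 receptors and 23.9% of tested genes were called. It was lost too when folds were centred on the median of the 4540 genes at 10 FPKM or more in both genotypes, which lies at -0.12 (Cxcr4 -0.34 with an adjusted p of 0.142, 6 of 9 receptors and 38.4% of genes called). The authors' deposited isoform table, in which p is adjusted over isoforms, lists 1 isoform for each of the 9 receptors, with the same FPKM as the gene. It gave Cxcr4 an adjusted p of 0.0511, and 5 of 7 tested receptors and 27.2% of isoforms were called there, Ccr2 and Cxcr5 being untested. With the same FPKM, Cxcr4 kept its call in the authors' deposited tables of start site groups (adjusted p = 0.0460) and coding sequences (adjusted p = 0.0471). All 7 calls were kept at a threshold of 0.10 (43.1% of genes called), with adjustment over tested genes at 1 FPKM or more (38.3%) and with folds centred on the median of all tested genes (35.0%). They were kept as well after adjustment for transcript length (33.0%), where Cxcr4 was at -0.64 with an adjusted p of 0.00345.

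The balance of Cxcr4 against the egress receptors shifted towards Cxcr4. The log2 fold of Cxcr4 was higher than that of Cxcr2 by 1.11 ± 0.27 (95% interval 0.59 to 1.64). In WT the level of Cxcr4 was 0.626 times that of Cxcr2, and in Srf KO it was 1.35 times. The order of the pooled levels thus turned round, but with no spread for a level this order is uncertain. Against Cxcr1 the fold of Cxcr4 was higher by 1.80 ± 0.36 (95% interval 1.09 to 2.52), and the ratio of Cxcr4 to Cxcr1 went from 75.8 to 265. Both intervals lie above 0, but on the log2(FPKM + 1) scale, which damps low levels, the difference from Cxcr1 was 1.09. In the folds as deposited the shift came with a fall of all 3 transcripts, and not with a rise of Cxcr4 mRNA. The fall of Cxcr4 was smaller, and its call depended on the processing.

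**Figure D2:**
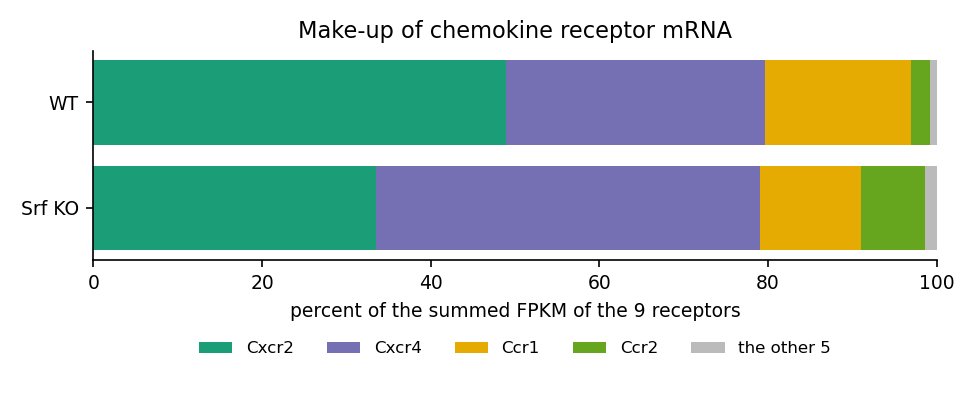
Share of each receptor in the summed FPKM of the 9 genes (x axis, percent) in WT and Srf KO, 1 pooled value per genotype. Cxcr2 went from 48.9% to 33.6% and Cxcr4 from 30.7% to 45.4% of the sum, which itself was lower in Srf KO.

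Of the summed receptor level, Cxcr2, Cxcr4 and Ccr1 together made up 96.9% in WT and 91.1% in Srf KO. The share of Ccr2 went from 2.30% to 7.52% between WT and Srf KO. In WT the order of levels was Cxcr2, Cxcr4, Ccr1, Ccr2, Cxcr1, Ccrl2, Cxcr5, Cxcr3 and Ccr3. In Srf KO it was Cxcr4, Cxcr2, Ccr1, Ccr2, Ccr3, Cxcr3, Cxcr5, Ccrl2 and Cxcr1. With no spread for a level, neighbours that are close cannot be ordered, such as the last 4 in WT (1.02 to 1.28 FPKM) and the last 3 in Srf KO (1.03 to 1.25 FPKM).

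Ccr1, a receptor for inflammatory CC chemokines, fell too, by a factor close to that of Cxcr2. Its gene is on chromosome 9 (123962126 to 123968692, mm10, minus strand, ENSMUSG00000025804.5), with 2 exons, of which 1 is coding. Levels of Ccr1 in the authors' deposited table were 211 FPKM in WT and 72.0 in Srf KO. This 2.93-fold fall stood in the authors' deposited table as -1.55 ± 0.18 on the log2 scale (95% interval -1.91 to -1.19), with an adjusted p listed as 0. The difference between the folds of Ccr1 and Cxcr2 was 0.02 ± 0.27, with an interval from -0.50 to 0.54 that leaves room for either gene to have fallen further. The fold of Cxcr4 was higher than that of Ccr1 by 1.09 ± 0.26 (95% interval 0.58 to 1.61).

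The neutrophil markers that were called fell, as Cxcr1, Cxcr2, Ccr1 and Cxcr4 did, and the called markers of earlier neutrophil stages rose. Of 5 tested neutrophil markers 4 were called lower and 0 higher (median -0.94), and at an unadjusted p under 0.05 the counts were 5 and 0. The fold of Cxcr2 (-1.57 ± 0.19) lay below all 5. That of Csf3r (-1.47 ± 0.22) was close to it, and the difference was not tested. Of 8 markers of immature neutrophils 5 were called higher and 0 lower (median 0.72), with a summed level of 4204 FPKM in WT and 6698 in Srf KO, and the fold of Cxcr4 lay below all 8. Among these the authors' deposited table had Chi3l3 at 3349 FPKM in WT and 5181 in Srf KO, and Fcnb at 196 and 433. Their part in the receptor differences was not tested.

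**Figure D3:**
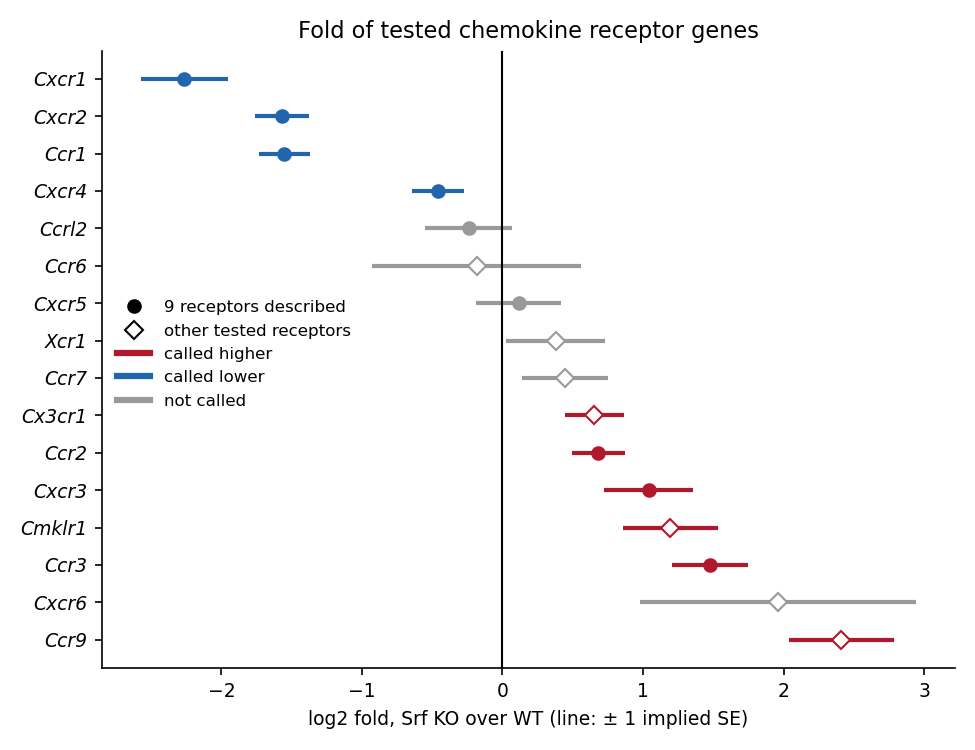
The log2 fold, Srf KO over WT, of the 9 receptor genes (filled circles) and of 7 other tested receptor genes (open diamonds), with lines of 1 implied standard error. Genes called lower (blue) are Cxcr1, Cxcr2, Ccr1 and Cxcr4, and all other called genes (red) are higher.

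The receptors that rose are those known best from other leukocytes. Ccr2, the receptor for CCL2 that brings monocytes out of the marrow, was the most abundant of them. It lies on chromosome 9 (124102183 to 124109140, mm10, plus strand, ENSMUSG00000049103.14), with 3 exons, of which 1 is coding. The authors' deposited table has Ccr2 at 28.0 FPKM in WT and 45.0 in Srf KO, a 1.60-fold rise (0.68 ± 0.19, 95% interval 0.31 to 1.05, adjusted p = 0.00172). Of 10 monocyte markers 4 were called higher and 1 lower (median 0.38), their summed level was 1394 FPKM in WT and 1815 in Srf KO, and none was at 0. By their higher genotype the most abundant in the authors' deposited table were Ly6c2, from 1144 to 1544 FPKM, and Ms4a6c, from 50.9 to 63.9 FPKM, neither being called. The marker called lower, named after its value was seen, was Csf1r, the M-CSF receptor gene, from 58.5 to 27.4 FPKM according to the authors' deposited table (-1.09 ± 0.18). The fold of Ccr2 was above that of 7 of the 10 markers, and their part in its rise was not tested.

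Ccr3, the eotaxin receptor, had the largest rise of the 9. Its gene is at 124021971 to 124031689 of chromosome 9 (mm10, plus strand, ENSMUSG00000035448.9), with 2 exons, of which 1 is coding. In the authors' deposited table Ccr3 was at 1.02 FPKM in WT and 2.83 in Srf KO, 2.78-fold higher (1.47 ± 0.27, 95% interval 0.94 to 2.01, adjusted p = 1.05e-06). Of the genes with a fold, 3.58% had a higher one. Of 7 tested eosinophil markers 4 were called higher and 0 lower (median 0.67, summed level 163 FPKM in WT and 302 in Srf KO), and of 5 basophil and mast cell markers all 5 were called higher (median 1.65, 41.5 and 113 FPKM). At an unadjusted p under 0.05, 1 eosinophil marker was lower. It was Siglec5, an older symbol of Siglecf, named after its value was seen. It went from 5.52 to 3.77 FPKM as deposited by the authors (-0.55 ± 0.24) and was not called. In the authors' deposited table Ear2, which has near-identical copies, went from 105 to 210 FPKM and Prg2 from 35.5 to 54.6 FPKM. Prss34 went from 22.3 to 50.4 FPKM and Mcpt8 from 14.0 to 46.0 FPKM according to the authors' deposited table. The fold of Ccr3 was above all 7 eosinophil markers and above 2 of the 5 basophil and mast cell markers, none of which was at 0, and their part in it was not tested.

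Cxcr3, the receptor for CXCL9 and CXCL10, rose from a low level. It is an X chromosome gene (101731536 to 101734147, mm10, minus strand, ENSMUSG00000050232.6) with 2 exons, both coding. The authors' deposited table put Cxcr3 at 1.10 FPKM in WT and 2.27 in Srf KO, a 2.06-fold rise (1.04 ± 0.32, 95% interval 0.42 to 1.66, adjusted p = 0.00492). Of 11 markers of T and NK cells, 10 were called higher and 0 lower (median 1.82, summed level 29.7 FPKM in WT and 74.6 in Srf KO), with none at 0. Of these, Gzma went from 2.70 to 13.9 FPKM and Cd3d from 13.5 to 15.0 FPKM according to the authors' deposited table, the latter not called. The fold of Cxcr3 was below that of 10 of the 11 markers, and their part in it was not tested.

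Cxcr5 and Ccrl2, the remaining receptors, were not called. Cxcr5, the receptor that guides B cells to follicles, is on chromosome 9 (44511787 to 44526421, mm10, minus strand, ENSMUSG00000047880.15) with 2 exons, both coding. It was at 1.15 FPKM in WT and 1.25 in Srf KO according to the authors' deposited table (0.12 ± 0.30, adjusted p = 0.800), with an interval of -0.48 to 0.71. Of 8 B cell markers 4 were called higher and 0 lower (median 0.58, summed level 102 FPKM in WT and 153 in Srf KO), all with a higher fold than Cxcr5. Cd79b went from 35.1 to 52.9 FPKM and Cd79a, not called, from 29.8 to 40.1 FPKM according to the authors' deposited table.

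Ccrl2 is on chromosome 9 (111054835 to 111057270, mm10, minus strand, ENSMUSG00000043953.12), with 2 exons, of which 1 is coding. For Ccrl2 the authors' deposited table gave 1.28 FPKM in WT and 1.08 in Srf KO (-0.24 ± 0.31, adjusted p = 0.575), with an interval of -0.85 to 0.37. The intervals of Cxcr5 and Ccrl2 allow changes of the size seen for Cxcr4, so they do not show that these genes were the same in both genotypes.

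**Figure D4:**
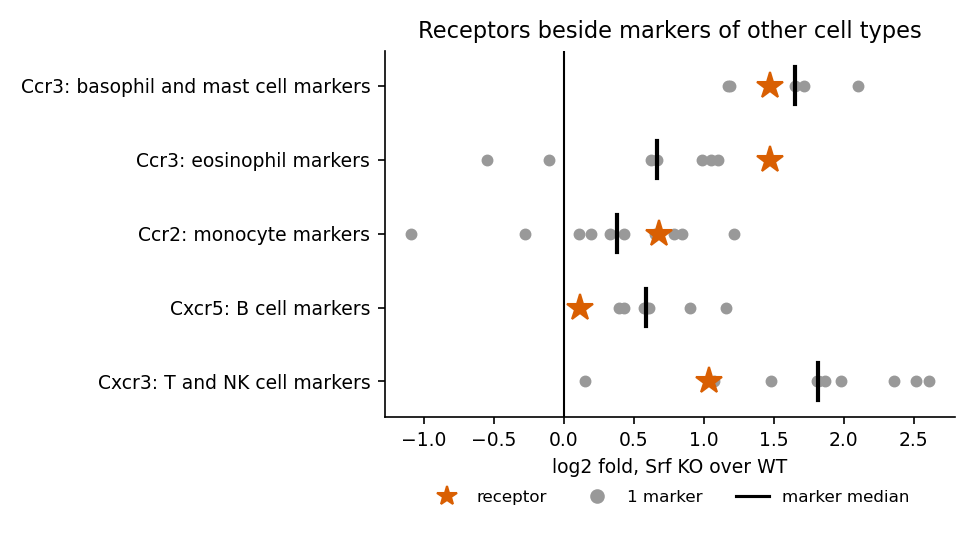
The log2 fold, Srf KO over WT, of 4 receptor genes (stars) beside the tested markers of the cell types best known for carrying them (grey points, with their median as a bar). Ccr3 lies right of all eosinophil markers, Cxcr5 left of all B cell markers, and Cxcr3 left of all but 1 of the T and NK cell markers.

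Ccr1, Ccr3 and Ccr2 lie in a receptor gene cluster on chromosome 9, described here over the 342 kb from Ccr9 to Ccr2, in which neighbours moved in opposite directions. Ccr1 fell, whereas Ccr3, 53.3 kb beyond it, and Ccr2, 70.5 kb further on, rose. The fold of Ccr3 was higher than that of Ccr1 by 3.03 ± 0.33 on the log2 scale (95% interval 2.38 to 3.67), and that of Ccr2 by 2.23 ± 0.26 (95% interval 1.72 to 2.75). The fold of Ccr3 was in turn higher than that of Ccr2, by 0.79 ± 0.33 (95% interval 0.15 to 1.44). On the log2(FPKM + 1) scale, which damps low levels, the folds were closer, at 0.92 for Ccr3 and 0.66 for Ccr2. At the other end, the authors' deposited table had Ccr9, a gut-homing receptor, rising from 0.196 to 1.05 FPKM (2.41 ± 0.37). Over this stretch Ccr1 was the only gene called lower. Cxcr6 and Fyco1, which share a locus, and Xcr1 were not called, and Ccr1l1 was not tested.

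**Figure D5:**
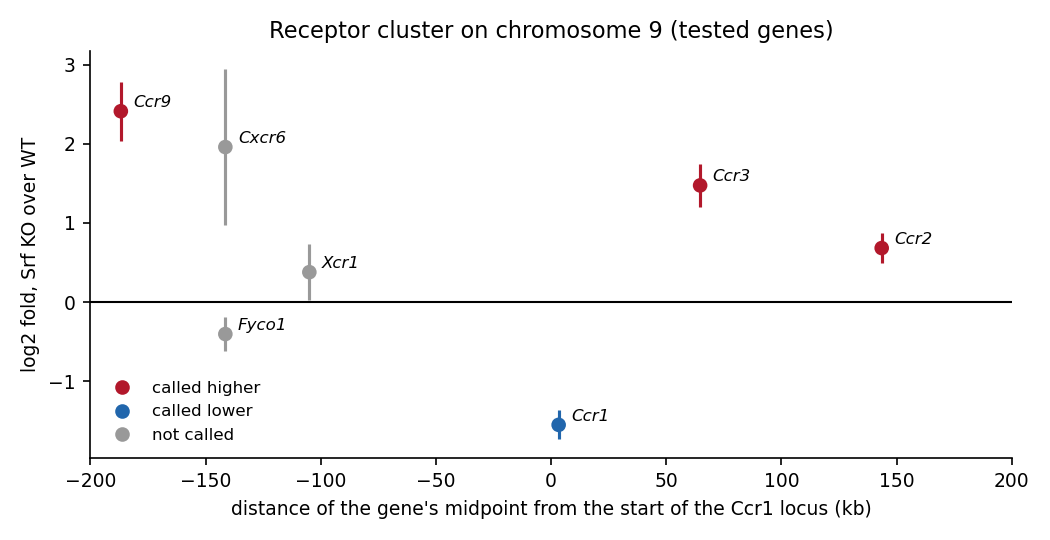
The log2 fold, Srf KO over WT, of the tested genes from Ccr9 to Ccr2 in the chromosome 9 receptor cluster against the distance of each gene's midpoint from the start of the Ccr1 locus (kb), with lines of 1 implied standard error. Ccr1 is the lowest point, and Ccr3, Ccr2 and Ccr9 are called higher.

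Other chemokine receptors were few and low, and those called were higher in Srf KO. Of 15 examined, 7 were tested, with a median log2 fold of 0.65. By the authors' test 3 were called higher and 0 lower, beside 17.7% and 17.8% of all tested genes. At an unadjusted p under 0.05 the counts were 4 and 0. These counts depend on which low genes were tested. Ccr9, at 0.196 FPKM in WT and 1.05 in Srf KO, was tested. Ccr10, from 0.191 to 0.0891 FPKM, and Ccrl1, an older symbol of Ackr4, from 0.204 to 0.138 FPKM, were not. A fall of such a gene could thus go without a call. Besides Ccr9 the called genes were Cx3cr1 and the chemerin receptor gene Cmklr1, which stayed under 1 FPKM. Cx3cr1, the fractalkine receptor of monocytes, also counted among the monocyte markers, went from 4.73 to 7.45 FPKM according to the authors' deposited table (0.65 ± 0.21, adjusted p = 0.00887).

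Of 23 listed ligands of the 9 receptors, 14 were tested, 5 called higher and 2 lower (median 0.68), beside 17.7% higher and 17.8% lower over all tested genes. Ccl6, a ligand of CCR1 made by neutrophils, fell from 991 to 260 FPKM according to the authors' deposited table (-1.93 ± 0.19), at a locus it shares with another gene. Cxcl2, a ligand of CXCR2, fell from 8.15 to 4.47 FPKM according to the authors' deposited table (-0.87 ± 0.27, adjusted p = 0.00722). The authors' deposited table had rises of Cxcl9, a ligand of CXCR3, from 0.654 to 3.45 FPKM (2.40 ± 0.31), and of Ccl5, a ligand of CCR1 and CCR3, from 7.35 to 33.9 FPKM (2.21 ± 0.28). Ccl8 rose there too, to 2.43 FPKM from 0.0457, with a large error in the authors' deposited table (5.73 ± 2.04). Cxcl12, the CXCR4 ligand, picked out after its values were seen, was at 2.84 FPKM in WT and 4.80 in Srf KO according to the authors' deposited table and was not called (adjusted p = 0.0565).

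Genes that carry the signal inward from these receptors fell or were not called. All 16 listed genes of receptor signalling were tested, and 10 were called lower and 0 higher, against 17.8% of all tested genes called lower (median -0.57). At an unadjusted p under 0.05 in the authors' test the counts were 13 and 1. Prex1, which encodes an activator of Rac switched on by G protein βγ subunits and lipid signals, fell from 59.1 to 20.6 FPKM according to the authors' deposited table (-1.52 ± 0.18). Pik3cg, the catalytic subunit of the PI3 kinase these receptors use, fell from 46.1 to 22.9 FPKM according to the authors' deposited table (-1.01 ± 0.20), and the G protein subunit gene Gnb2 from 333 to 173 FPKM (-0.94 ± 0.18).

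Genes that switch the receptors off mostly fell as well. Of 12 genes of receptor desensitisation, all tested, 8 were called lower and 1 higher (median -0.67). The β-arrestin gene Arrb1, whose locus overlaps a microRNA gene, fell from 35.3 to 14.0 FPKM according to the authors' deposited table (-1.34 ± 0.24). Arrb2, the other and more abundant β-arrestin gene, picked out after its values were seen, was not called. It was at 453 FPKM in WT and 482 in Srf KO as deposited by the authors (0.09 ± 0.19, adjusted p = 0.751). The receptor kinase gene Grk5 fell from 13.3 to 5.90 FPKM (-1.18 ± 0.21), and Adrbk1, which encodes the kinase GRK2, from 304 to 153 FPKM (-0.99 ± 0.19), as listed in the authors' deposited table. Rgs1, a G protein regulator, was the gene that rose, from 0.344 to 1.32 FPKM according to the authors' deposited table (1.94 ± 0.46).

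Among other genes known for neutrophil retention, release and ageing, 5 of 16 tested were called lower and 2 higher (median -0.12), beside 17.8% lower and 17.7% higher over all tested genes. Csf3r and Itgam, both called lower, were also counted among the neutrophil markers above, and Cebpe, not called, among those of immature neutrophils. Cd101, a surface marker of late neutrophil maturity, fell from 94.7 to 11.7 FPKM according to the authors' deposited table (-3.02 ± 0.20). Csf3r, the receptor for the releasing cytokine G-CSF, fell from 687 to 248 FPKM (-1.47 ± 0.22), and Sfpi1, which encodes PU.1, from 364 to 177 FPKM (-1.04 ± 0.18), as listed in the authors' deposited table. Vcam1, an adhesion molecule of marrow stroma and macrophages, rose from 8.54 to 23.7 FPKM (1.47 ± 0.20), and Gfi1, a transcription factor of early neutrophil development, from 8.96 to 15.8 FPKM (0.82 ± 0.20), as listed in the authors' deposited table. Of 8 macrophage markers, Vcam1 included, 7 were called higher and 1 lower (median 1.39). C1qb, a complement gene of macrophages, went from 14.8 to 32.8 FPKM according to the authors' deposited table. The marker called lower, named after its value was seen, was Emr1, which encodes F4/80 and was the most abundant of the 8 in WT, from 16.8 to 10.4 FPKM according to the authors' deposited table (-0.69 ± 0.20). The part of these markers in the rise of Vcam1 was not tested.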

How the data were processed

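RNA of 2 WT and 2 Srf KO samples, grouped by the labels' genotype, was sequenced from TruSeq RNA v2 libraries, which do not mark the strand (kit per the labels' protocols). CASAVA 1.8.1, TopHat2 2.0.0, Cufflinks 2.0.0 and mm10 are named without settings, per the submitters' processing notes. The authors deposited FPKM per gene, isoform, start site group and coding sequence, 1 value per genotype, per the file headers. Their log2 fold and test statistic were handled as a score, since the deposited columns hold a placeholder where a genotype is at 0. The p-value and q-value are the authors' as deposited; it was checked that q is the Benjamini-Hochberg adjustment of p over features of status OK, and that calls have a q of at most 0.05.

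Here the sign of the fold was turned to Srf KO over WT, and standard errors were derived by dividing the size of the fold by the size of the statistic. No new test was run on the folds as deposited. Centred and length-adjusted folds had p recomputed with the same errors. These p were adjusted over the 12552 tested genes with a fold when centred, and over the 12268 that also had a length when adjusted for length. Starts were turned to count from 1. Length (for 97.7% of genes with a fold), strand, exons and identifiers come from GENCODE M21 (GRCm38, the assembly of mm10). The 9 receptors were all described; of each pathway list up to 3 called genes per direction with the largest fold among those at 1 FPKM or more in a genotype were named, and of each marker list the 2 with the highest FPKM in either genotype, a choice that favours markers that rose. The pathway choice likewise favours genes high in 1 genotype, and Ccr9, Rgs1, Ccl8 and Cxcl9 reached 1 FPKM only in Srf KO. Arrb2, Siglec5, Cxcl12, Cmklr1, Csf1r and Emr1 stand outside these rules. Among the list genes, Ly6g and Ear6 were not analysed here and 1 other is not reported here. The receptors and lists were chosen with earlier results of these data known. Alternatives were other thresholds, a 1 FPKM minimum, a pseudocount of 1, centred and length-adjusted folds and the isoform table. Calculations were tested on simulated data. Scripts ran in Python 3.11.15 with pandas 2.3.3, numpy 2.4.6 and scipy 1.17.1, and plots were drawn with matplotlib 3.10.9.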

Additional observations from a re-analysis of the deposited data

How the results depend on the processing

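Of 70 receptor results under the alternatives, 0 changed direction and 3 lost the call (all of Cxcr4). Direction could change only where folds were centred or adjusted for length. The other thresholds, the 1 FPKM minimum and the isoform table left the folds as they were, and a pseudocount cannot turn a fold round. On the log2(FPKM + 1) scale, which has no test and shrinks folds of low genes, 3 moved by more than their standard error, Cxcr1 to -1.55, Cxcr3 to 0.64 and Ccr3 to 0.92. That scale also took the difference between the folds of Cxcr4 and Cxcr1 from 1.80 to 1.09, whereas that between Cxcr4 and Cxcr2 ranged from 0.92 to 1.11 over its alternatives. Over all alternatives the small folds of the uncalled genes ranged from 0.03 to 0.24 for Cxcr5 and from -0.35 to -0.12 for Ccrl2. Of 40 recomputed list counts, 37 were within 1.5 times the reported ones; at a threshold of 0.10, 1 gene of receptor signalling was called higher instead of 0 and 2 of receptor desensitisation instead of 1, and the latter count was 2 after length adjustment. Centring on the median of genes at 10 FPKM or more moved the calls among all genes from 2234 higher and 2252 lower (49.8% higher) to 3066 and 1759 (63.5%). List counts were not recomputed under that centring, nor with the 1 FPKM minimum or the isoform table. No paired analysis was possible because the tables used hold 1 pooled value per genotype, and for the same reason no sample could be left out in turn and depth is unknown.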

Other observations

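Several genes beside Cxcr2 and Cxcr1 on chromosome 1, singled out after their values were seen, were called lower in Srf KO as well. Rufy4, upstream of Cxcr2, went from 8.99 to 3.91 FPKM according to the authors' deposited table (-1.20 ± 0.23). Beyond Cxcr1, the Arp2/3 complex gene Arpc2 went from 724 to 492 FPKM (-0.56 ± 0.19), Aamp from 41.5 to 22.5 FPKM (-0.88 ± 0.19) and the metal transporter gene Slc11a1 from 74.2 to 36.7 FPKM (-1.01 ± 0.18), as listed in the authors' deposited table. All 4 were called lower, beside 17.8% of all tested genes, and the stretch looked at begins with Rufy4 and ends with Slc11a1. Within it Pnkd and Tmbim1, which share a locus, were tested and not called. Pnkd went from 13.8 to 10.6 FPKM, and Tmbim1 went the other way, from 2.14 to 3.18 FPKM. Gpbar1 and Gm216 were not tested. The folds of Cxcr2 (-1.57) and Cxcr1 (-2.26) were lower than those of the tested neighbours, a difference that was not tested.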
